A study of Mus musculus with 5 samples.

Results

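The genes described here build ribosomes in the nucleolus. They are RNA polymerase I subunits, the core proteins of small nucleolar ribonucleoproteins (snoRNPs) and assembly factors of the small and large ribosomal subunits. They were taken by name as a list of 40 genes, and 39 of them had a row among the 23234 genes of the deposited table. Noc2l, the remaining gene, was not analysed here. In the nucleolus RNA polymerase I transcribes the ribosomal RNA precursor, box C/D and box H/ACA snoRNPs guide its methylation and pseudouridylation, and assembly factors fold and cut it into the pre-ribosomal subunits. Many of these genes are known targets of MYC, the transcription factor that B cells induce in the germinal centre light zone after antigen and T cell help. In the light zone, germinal centre B cells test their antigen receptor before they divide again.

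Expression was measured by RNA sequencing in donor light zone B cells that bound the hapten NP and were sorted from mouse spleen. Of the 5 libraries, 2 were labelled Csk(f/f) and 3 Csk(+/+). Csk is the kinase that holds Src family kinases inactive, and the study asked how receptor signalling that it restrains bears on selection in the germinal centre. The design text calls the libraries biological replicates without saying that they came from separate animals, so p-values measure the spread between these libraries. Donor cells of both groups carried ERT2cre(KI/+), a Cre recombinase that tamoxifen activates, and B1-8hi(KI/+), a knock-in heavy chain for NP, and were CD45.1/2. They differed in the Csk alleles, written Csk(fl/fl) in the growth protocol for the first group and Csk(+/+) for the second. Naive donor B cells went into C57BL/6J hosts, which received NP-CGG in alum on day 0. Tamoxifen followed on days 8 and 9 in both groups and cells were sorted on day 11, so Csk was targeted only after the response had begun. The promoter that drives the Cre, the age of the mice, the exons that are floxed and whether animals were pooled are not given in the sources used here.

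Values are FPKM, which divides fragments by transcript length and library depth, so that levels can be compared between genes. Fold changes are Csk(f/f) over Csk(+/+) on the log2(FPKM + 1) scale with their standard error (SE). Depth was estimated from what 1 fragment is worth among the low values, at 9.52 to 23.7 × 10⁶ fragments per library, and is not stated in the sources used here. Csk transcript itself had 453 and 476 FPKM in the Csk(f/f)-labelled libraries, against 378, 436 and 415 in Csk(+/+), so the gene-level value did not show a loss. A gene-level value includes exons outside any deleted part, so it does not check the genotype, and the groups are named by their labels. Csk(+/+) replicate 3 stood apart, with a library weight of 0.259 against 1.35 to 1.55 for the other 4. The 2 Csk(f/f)-labelled libraries lie equally far from their mean and so share a weight of 1.36. The weights therefore could not single out either of them. The B cell gene Cd79a had 1351 and 1388 FPKM in the Csk(f/f)-labelled libraries, against 936, 1166 and 1296 in Csk(+/+). The germinal centre gene Bcl6 had 55.6 and 59.2 FPKM against 81.7, 75.2 and 60.1. Of the 11 genes listed for light zone and germinal centre B cells, 5 lay below and 4 above without overlap. These stand beside 24.5% below and 20.7% above of all tested genes. Cd83, at 515 and 487 FPKM against 379, 403 and 388, lay above. Cd86, at 63.4 and 56.9 against 80.5, 73.2 and 76.0, lay below. The T cell list, of which 1 of 7 genes (Lat) reached 1 FPKM and Cd3e and Cd3g were listed at 0, summed to 7.67 and 10.3 FPKM in the Csk(f/f)-labelled samples against 6.24 to 7.45 in Csk(+/+). The macrophage list, with 1 of 8 genes (Cd68) reaching 1 FPKM and Mertk at 0, summed to 12.6 and 14.4 against 10.4 to 13.5 FPKM. The natural killer list, with 1 of 5 (Prf1) reaching 1 FPKM and Ncr1, Klra8 and Gzma at 0, summed to 1.25 and 1.19 against 0.817 to 1.95 FPKM. Across the table, fold changes ran with the GC content of the transcript (Spearman rho 0.71 over 10111 genes, which are not independent). Each result below is therefore given as deposited and, where it matters, after subtracting that trend from each library (the GC correction).

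None of the 39 genes passed an adjusted p of 0.05 (limma over 10242 tested genes, Benjamini-Hochberg). The smallest adjusted p was 0.154, for Npm1. Across all tested genes 8 passed, or 0.0781%. At an unadjusted p under 0.05 by limma, 6 members were lower and 6 higher. These were 15.4% of the members in each direction, beside 13.6% of all tested genes lower and 8.07% higher. The median log2 fold change of the members was -0.0018, beside -0.012 for all tested genes. Of the members 20 were negative, beside 51.3% of all tested genes, and 19 positive, beside 48.7%. The members spread from -0.84 for Ncl to 0.43 for Rrp9, and the 6 lower ones had GC-poor transcripts (41.0 to 48.3%) while the 6 higher ones had GC-rich transcripts (52.1 to 59.9%).

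The coding stretches below show this contrast for the 3 members with the smallest p in each direction. Each is the first in-frame 90-base window of the coding sequence used here whose GC content is nearest to that of the whole sequence (GENCODE M21 on GRCm38, sense strand, 5′ to 3′). G and C are in capitals. The first 3 genes had lower values in Csk(f/f)-labelled samples and lie on chromosomes 11, 1 and 17.
Npm1: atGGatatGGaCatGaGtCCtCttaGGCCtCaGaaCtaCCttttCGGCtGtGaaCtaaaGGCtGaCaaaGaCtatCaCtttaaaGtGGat
Ncl: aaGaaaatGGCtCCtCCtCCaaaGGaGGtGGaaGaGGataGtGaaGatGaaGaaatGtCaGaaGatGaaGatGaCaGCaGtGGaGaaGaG
Wdr43: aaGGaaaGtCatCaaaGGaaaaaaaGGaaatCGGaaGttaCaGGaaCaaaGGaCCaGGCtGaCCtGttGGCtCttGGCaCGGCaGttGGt
The next 3 were higher and lie on chromosomes 9, 15 and 19.
Rrp9: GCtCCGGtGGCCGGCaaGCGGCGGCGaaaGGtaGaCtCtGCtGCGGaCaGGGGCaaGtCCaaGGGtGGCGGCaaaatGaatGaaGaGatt
Bop1: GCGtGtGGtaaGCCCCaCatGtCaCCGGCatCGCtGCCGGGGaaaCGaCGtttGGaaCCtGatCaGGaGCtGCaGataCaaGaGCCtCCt
Rrp12: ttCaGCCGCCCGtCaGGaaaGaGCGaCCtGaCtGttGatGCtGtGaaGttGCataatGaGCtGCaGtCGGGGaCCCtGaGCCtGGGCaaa
The coding GC content was 42.2% in Npm1, 44.7% in Ncl and 46.3% in Wdr43. It was 60.6% in Rrp9, 58.6% in Bop1 and 56.4% in Rrp12.

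The members were abundant in light zone B cells. Their median over the 5 libraries was 50.8 FPKM, against 12.4 FPKM over all tested genes, and 37 of 39 lay above that median. The least abundant, Noc3l, had about 141 fragments in its shallowest library by the depth estimate above, so all members were well sampled. All 39 passed the filter of 1 FPKM in at least 2 libraries. The plot of levels by library shows the members in order of role.

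**Figure D1:**
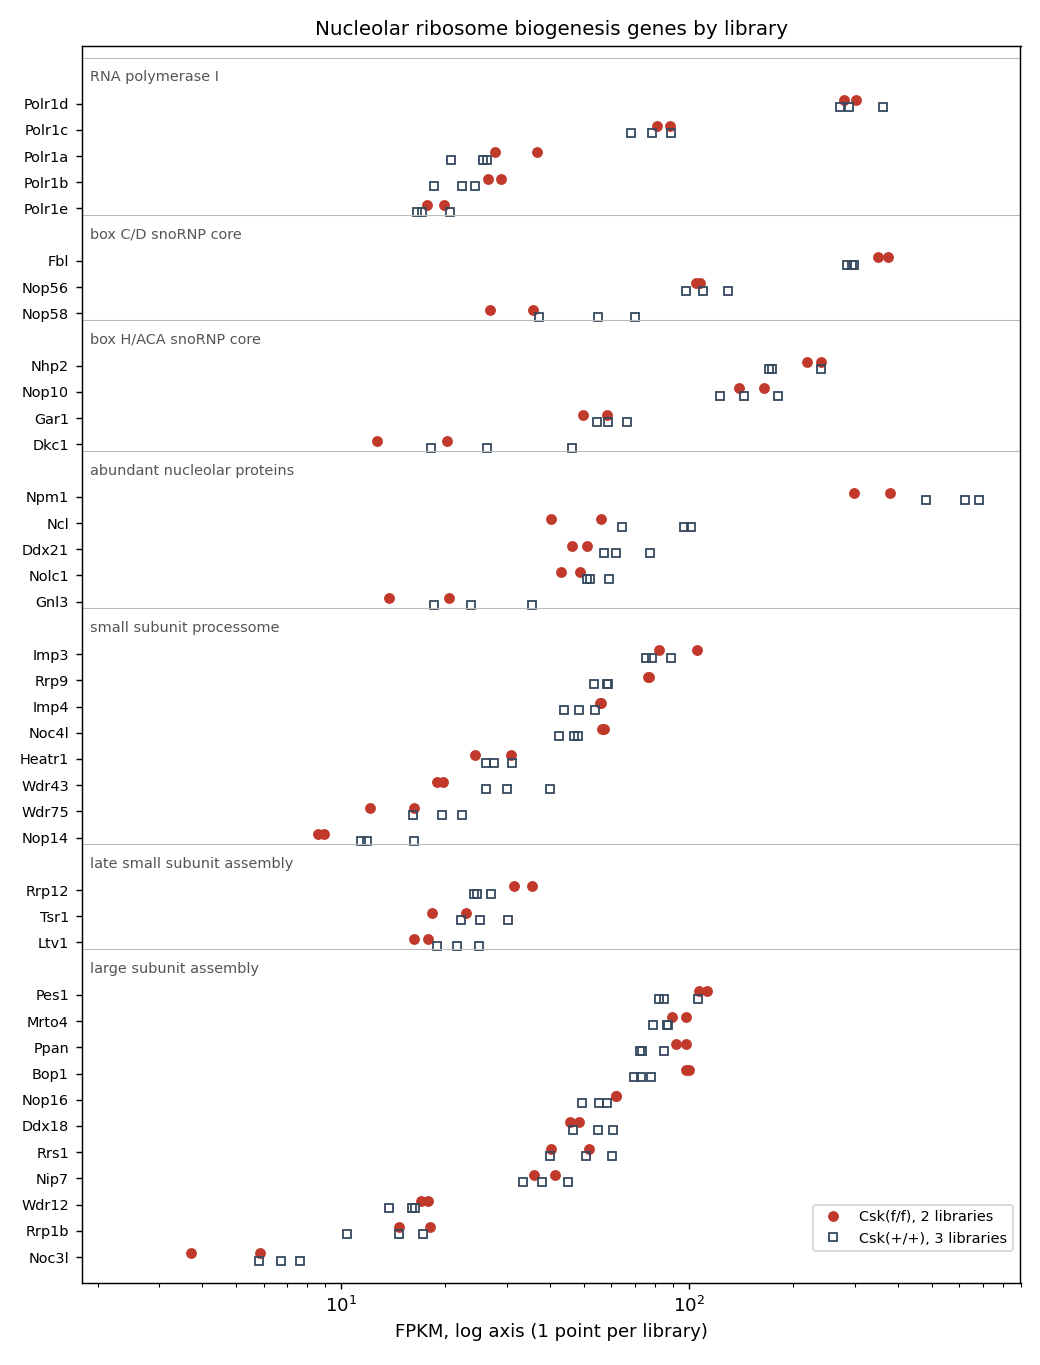
FPKM on a log axis for the 39 genes, grouped by role and sorted by level within a role. Filled circles are the 2 Csk(f/f)-labelled libraries and open squares the 3 Csk(+/+) libraries. Npm1, Ncl, Ddx21 and Nolc1 sit lower in both Csk(f/f)-labelled libraries than in any Csk(+/+) library, and Rrp9, Bop1, Fbl and Noc4l sit higher.

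Among RNA polymerase I genes no member had an unadjusted p under 0.05. Polr1a encodes the largest subunit and had 27.8 and 36.7 FPKM in the Csk(f/f)-labelled libraries, against 26.4, 25.6 and 20.7 in Csk(+/+). Both Csk(f/f)-labelled values lay above all Csk(+/+) values, the first by little (log2 fold change 0.39 ± 0.18, limma adjusted p = 0.248). Polr1b, which shares the active site with it, also had groups that did not overlap, at 27.7 ± 1.60 FPKM (SD, n = 2) against 21.8 ± 2.96 (SD, n = 3). Polr1d, a small subunit that RNA polymerase III also contains, was the most abundant of the 5, with 302 and 279 FPKM against 288, 273 and 362. Its groups overlapped (log2 fold change -0.07 ± 0.16), as did those of Polr1c, the partner of Polr1d in both polymerases (0.11 ± 0.15), and of Polr1e (0.05 ± 0.16). The order of levels, Polr1d, Polr1c, Polr1a, Polr1b, Polr1e, was the same in 4 of 5 libraries.

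The core of box C/D snoRNPs is made of the methyltransferase fibrillarin (Fbl) and the paired scaffold proteins Nop56 and Nop58. Their fold changes differed in sign. Fbl had 349.6 and 374 FPKM in the Csk(f/f)-labelled libraries, against 285, 295 and 299.7 in Csk(+/+), with no overlap (log2 fold change 0.30 ± 0.13, limma adjusted p = 0.225). Nop58 had 35.7 and 26.9 FPKM, against 54.8, 37.2 and 70.2, also with no overlap but with Csk(+/+) replicate 2 close to Csk(f/f) replicate 1 (-0.74 ± 0.26, adjusted p = 0.192). Nop56 overlapped, at 106 ± 1.54 FPKM (SD, n = 2) against 113 ± 15.9 (SD, n = 3). The ratio of Nop58 to Nop56 within a library, which no scaling of the library can alter, was 0.339 and 0.250 in the Csk(f/f)-labelled samples and 0.422, 0.378 and 0.638 in Csk(+/+). The transcripts differ in GC content (41.0% for Nop58, 50.1% for Nop56 and 52.1% for Fbl), and after the GC correction the log2 fold change of Nop58 was -0.31 ± 0.24 and that of Fbl 0.18 ± 0.15. The order Fbl, Nop56, Nop58 held in all 5 libraries.

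The box H/ACA core, which holds the pseudouridine synthase dyskerin (Dkc1) and also forms part of telomerase, had no member with an unadjusted p under 0.05. Dkc1 varied most between libraries, with 20.1 and 12.7 FPKM in the Csk(f/f)-labelled libraries, against 26.4, 18.2 and 46.3 in Csk(+/+). The high value came from Csk(+/+) replicate 3, and the groups overlapped (log2 fold change -0.78 ± 0.37, limma adjusted p = 0.259). Nhp2 had 229.6 ± 14.2 FPKM (SD, n = 2) against 195 ± 39.7 (SD, n = 3), and Nop10 152 ± 17.7 against 149 ± 29.4. Gar1 had 54.1 ± 6.12 against 60.0 ± 6.14 FPKM. The levels of the 4 subunits followed the order Nhp2, Nop10, Gar1, Dkc1 in all 5 libraries.

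The genes grouped as abundant nucleolar proteins were the only role in which every member had a negative log2 fold change. By transcript level the name does not hold for all of them, since Gnl3 averaged 22.4 FPKM, below the members' median of 50.8. Fbl, Polr1d, Nhp2 and Nop10, of other roles, averaged 321, 301, 209 and 151 FPKM. Their log2 fold changes were 0.30, -0.07, 0.25 and 0.04. Npm1, nucleophosmin, a chaperone of histones and ribosomal proteins, had 380.3 and 299 FPKM in the Csk(f/f)-labelled libraries, against 683, 481 and 625 in Csk(+/+). The groups did not overlap (log2 fold change -0.81 ± 0.20, 95% CI -1.26 to -0.35, limma adjusted p = 0.154). Ncl, nucleolin, which binds the ribosomal RNA precursor, had 56.1 and 40.1 FPKM against 96.7, 64.4 and 102 (-0.84 ± 0.23, adjusted p = 0.155). Again the lowest Csk(+/+) library, replicate 2, lay above both others. Ddx21, an RNA helicase that acts on ribosomal RNA transcription, had 51.1 and 46.3 FPKM against 77.6, 57.1 and 61.7 (-0.41 ± 0.16, adjusted p = 0.212). Nolc1, a chaperone of snoRNPs, was at 45.8 ± 4.08 FPKM (SD, n = 2) against 54.1 ± 4.37 (SD, n = 3). Gnl3, the GTPase nucleostemin, was at 17.1 ± 4.76 against 25.9 ± 8.61 FPKM with overlap. The groups of 4 of these 5 genes did not overlap, beside 24.5% of all tested genes that lay below in this way.

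Summed over these 5 genes the level was 551 and 448 FPKM in the Csk(f/f)-labelled libraries, against 952, 672 and 864 in Csk(+/+). Npm1 made up most of it. Relative to Fbl in the same library, Npm1 stood at 1.09 and 0.799 in the Csk(f/f)-labelled samples and at 2.40, 1.63 and 2.08 in Csk(+/+), so Npm1 was not the highest of the 39 genes in Csk(f/f) replicate 2, where Fbl exceeded it. After the GC correction all 5 genes kept a negative log2 fold change, from -0.48 for Ncl to -0.21 for Ddx21, and the median of the 5 was -0.35, against -0.55 as deposited. The sign was negative for all 5 in each of the 21 settings run, with medians of -0.82 to -0.30, but no gene passed the adjusted threshold after either GC correction. Lower values in bulk libraries cannot separate less RNA per cell from fewer cells that express a gene. Npm1 is known to have processed pseudogene copies, and a search of the annotation by name found 2 pseudogenes for Mrto4 and none for the other members. How the authors assigned reads between such copies is not given in the sources used here.

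The small subunit processome, the particle that folds the 18S part of the precursor around U3 snoRNA, had members at both ends. Rrp9, the U3-specific protein, had 76.6 and 77.0 FPKM in the Csk(f/f)-labelled libraries, against 53.4, 58.7 and 58.2 in Csk(+/+) (log2 fold change 0.43 ± 0.12, limma adjusted p = 0.157). Its libraries agreed closely within each group and did not overlap. Wdr43, of the early subcomplex that also promotes ribosomal DNA transcription, had 19.7 and 19.0 FPKM against 39.9, 26.2 and 30.1 (-0.68 ± 0.19, adjusted p = 0.158). Wdr75 and Heatr1 belong to the same subcomplex. Wdr75 had 16.2 and 12.1 FPKM against 22.3, 16.2 and 19.5, so Csk(f/f) replicate 1 and Csk(+/+) replicate 2 nearly coincide and the groups overlap (-0.43 ± 0.20), while Heatr1 had 27.6 ± 4.53 FPKM (SD, n = 2) against 28.2 ± 2.54 (SD, n = 3).

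Nop14 and Noc4l encode partners that bind each other in yeast, and they differed in sign here. Nop14 had 8.97 and 8.62 FPKM in the Csk(f/f)-labelled libraries, against 16.2, 11.4 and 11.9 in Csk(+/+) (log2 fold change -0.52 ± 0.20, limma adjusted p = 0.206). Noc4l had 57.0 and 56.4 FPKM against 48.0, 42.4 and 47.0 (0.31 ± 0.13, adjusted p = 0.221). Neither pair of groups overlapped. After the GC correction the log2 fold change of Nop14 was -0.43 ± 0.16 (unadjusted p = 0.031 by limma) and that of Noc4l 0.07 ± 0.14. Imp3 and Imp4, which join U3 snoRNA to the precursor, had log2 fold changes of 0.21 ± 0.15 and 0.20 ± 0.14.

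Of the genes that act late on the small subunit, Rrp12, needed for export of pre-ribosomes, had 31.5 and 35.5 FPKM in the Csk(f/f)-labelled libraries, against 24.7, 27.0 and 24.1 in Csk(+/+). The groups did not overlap (log2 fold change 0.39 ± 0.14, limma adjusted p = 0.192). Ltv1 and Tsr1, which sit on the cytoplasmic pre-40S particle, had lower means, at 17.0 ± 1.17 FPKM (SD, n = 2) against 21.8 ± 3.02 (SD, n = 3) for Ltv1 and 20.6 ± 3.27 against 25.8 ± 4.07 for Tsr1. Their log2 fold changes were -0.33 ± 0.17 and -0.31 ± 0.18. With the GC correction Rrp12 was at 0.14 ± 0.12, Ltv1 at -0.10 ± 0.12 and Tsr1 at -0.15 ± 0.14.

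Among the 11 large subunit assembly genes 7 had positive and 4 negative log2 fold changes. The 2 with an unadjusted p under 0.05 were Bop1 and Ppan, both higher, beside 8.07% higher of all tested genes. After the GC correction Bop1 was at 0.13 ± 0.14 and Ppan at 0.05 ± 0.13, with unadjusted p of 0.41 and 0.72 by limma. Bop1, Pes1 and Wdr12 form the PeBoW complex that 28S ribosomal RNA maturation needs. Bop1 had 100.4 and 98.3 FPKM in the Csk(f/f)-labelled libraries, against 69.7, 73.2 and 77.8 in Csk(+/+), with no overlap (0.43 ± 0.12, limma adjusted p = 0.158). Pes1 had 109.8 ± 3.93 FPKM (SD, n = 2) against 91.2 ± 13.1 (SD, n = 3), and Wdr12 17.4 ± 0.574 against 15.4 ± 1.43, both without overlap but with intervals of the fold change that include 0 (-0.07 to 0.62 and -0.19 to 0.53). All 3 complex members thus had positive values, in the order Pes1, Bop1, Wdr12 in every library. Ppan had 91.9 and 98.2 FPKM against 85.0, 73.7 and 72.3 (0.30 ± 0.13, adjusted p = 0.230).

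The remaining large subunit genes had an unadjusted p above 0.05 by limma. Noc3l, the least abundant member, had 5.86 and 3.72 FPKM in the Csk(f/f)-labelled libraries, against 7.63, 5.82 and 6.72 in Csk(+/+), with overlap (log2 fold change -0.43 ± 0.23, limma adjusted p = 0.297). Rrp1b had 14.7 and 18.1 FPKM against 17.3, 14.7 and 10.4, with overlap (0.22 ± 0.23). Nop16 (0.19 ± 0.13) and Mrto4 (0.15 ± 0.12), a protein that holds the place of the ribosomal stalk, had values without overlap, and the helicase Ddx18 (-0.19 ± 0.15), Rrs1 (-0.12 ± 0.20) and Nip7 (-0.0018 ± 0.16) had values that overlapped.

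Over all 39 genes, 8 had both Csk(f/f)-labelled libraries below every Csk(+/+) library, or 20.5%, beside 24.5% of all tested genes. In the other direction 13 lay above, or 33.3%, beside 20.7% of all tested genes. The share below is near the background, and the share above exceeds it as a count, which was given no test. The plot of fold changes sets the values as deposited beside those after the GC correction.

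**Figure D2:**
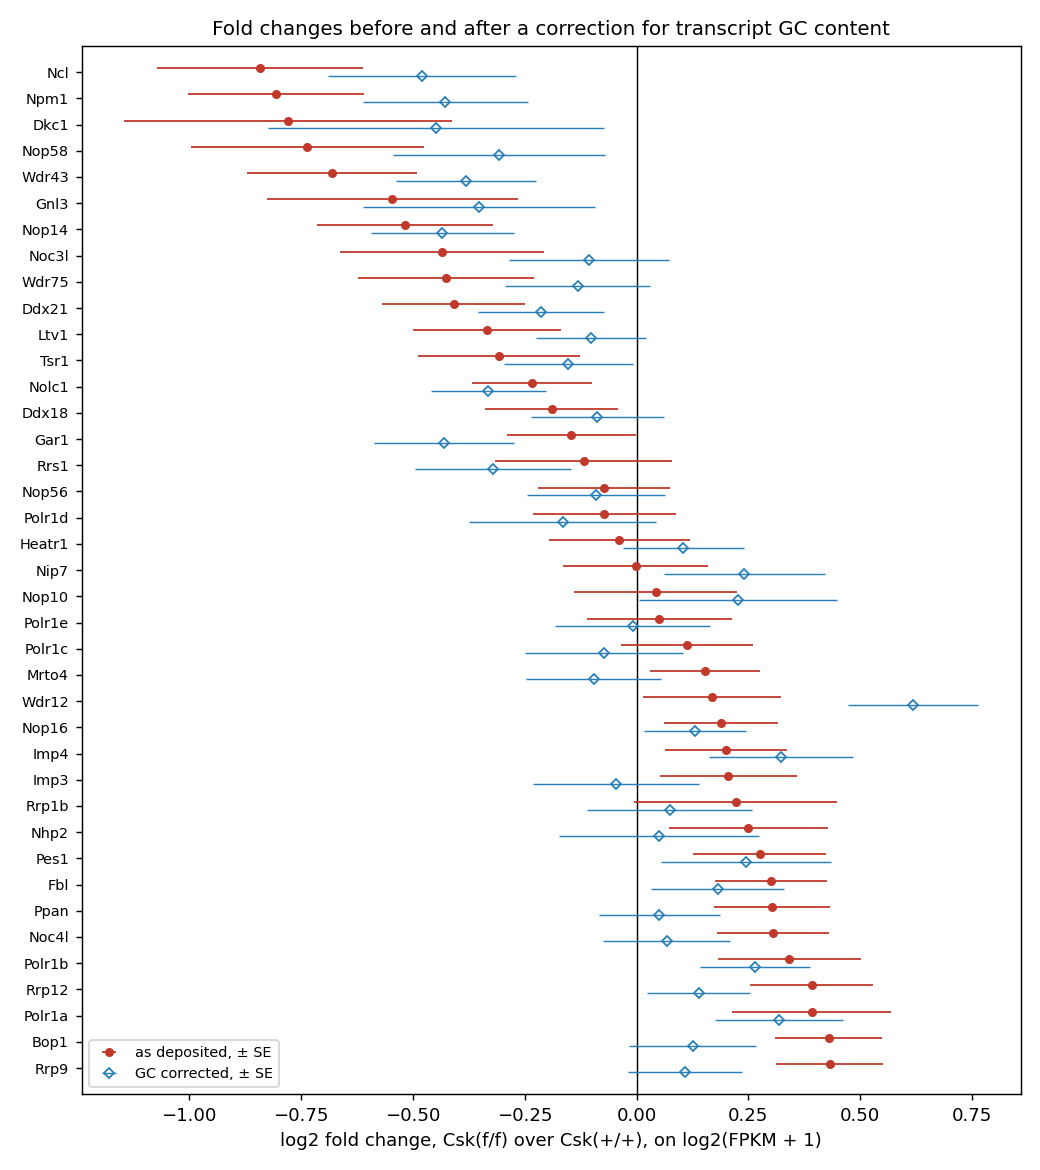
Log2 fold change, Csk(f/f) over Csk(+/+), of the 39 genes in order of the deposited value, with bars of 1 SE. Circles are as deposited and diamonds after the GC correction, where most values lie nearer to 0, Npm1 at -0.43 and Rrp9 at 0.11, and Wdr12 and Gar1 are exceptions.

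Within the list, fold change followed GC content as it did across the table, with a Spearman rho of 0.73 over the 39 genes, which share the same 5 libraries. The 20 members with a transcript GC content up to 50.3% had a median log2 fold change of -0.37, and 16 of them were negative. The 19 members above that had a median of 0.22, and 15 were positive. All tested genes in the central GC range of the first set (43.7 to 47.4%, 1881 genes) had a median of -0.25, and those in the range of the second (51.5 to 55.8%, 2177 genes) 0.18. The correction subtracts the GC trend, so a smaller rho follows from the step itself. Afterwards rho was 0.26 over the 39 genes and -0.004 over all tested genes, and 29 of the 39 fold changes lay nearer to 0. No member passed the adjusted threshold, beside 0.0791% of all genes, and 22 were negative, beside 49.8%, and 17 positive, beside 50.2%. At an unadjusted p under 0.05 by limma, 4 members were then lower, beside 5.07% of all genes, and 1 was higher, beside 4.91%. The 4 were Wdr43 (-0.38 ± 0.16), Nop14, Nolc1 (-0.33 ± 0.13) and Gar1 (-0.43 ± 0.16), and the 1 was Wdr12 (0.62 ± 0.14, adjusted p = 0.355).

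**Figure D3:**
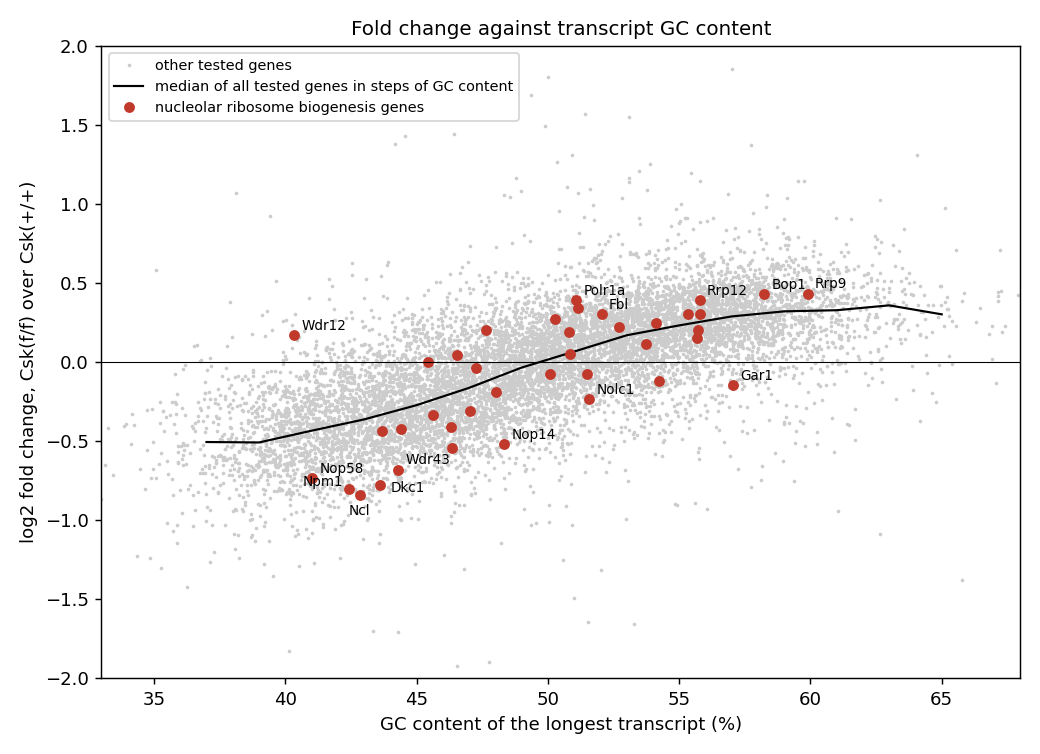
Log2 fold change, Csk(f/f) over Csk(+/+), against the GC content of the longest annotated transcript, with the axis cut at -2 and 2. Red points are the 39 genes, grey points the other tested genes and the line their median with the members included. Npm1, Ncl, Nop58 and Dkc1 lie at the GC-poor end below the line, and Rrp9 and Bop1 at the GC-rich end close to it.

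The corrected value for Wdr12 depends in part on which sequence is measured. Its longest annotated transcript has a GC content of 40.4% and its coding sequence 46.7%. As deposited its log2 fold change was 0.17 ± 0.15, and after the GC correction 0.62 ± 0.14. With the GC content of the coding sequence used instead, a choice made after seeing the data, it was 0.48 ± 0.15. In that fit 2 members were lower by limma at an unadjusted p below 0.05, Nolc1 (-0.34 ± 0.14) and Gar1 (-0.35 ± 0.15), beside 6.81% of all genes. Another 3 were higher, Wdr12, Polr1a (0.42 ± 0.15) and Polr1b (0.39 ± 0.14), beside 4.96%. The smallest adjusted p of the 39 was 0.279, where 0.0621% of all genes passed. Of the 39, 18 were negative, beside 48.7% of all genes, and 21 positive, beside 51.3%.

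Library composition moved beside these values. Csk(+/+) replicate 2 had the lowest median deviation of the members from their gene means (-0.09, the others 0.0033 to 0.06), and it was the lowest Csk(+/+) library for Npm1, Ncl, Wdr43, Nop58, Nop14 and Ddx21. Without Csk(+/+) replicate 3, 8 members were lower by limma at an unadjusted p below 0.05, beside 21.4% of all genes, and 8 higher, beside 13.3%, with a smallest adjusted p of 0.0505, where 4.05% of all genes passed the adjusted threshold. By sign 18 were then negative, beside 55.6% of all genes, and 21 positive, beside 44.4%. With the GC correction and without that library, 6 were lower, beside 9.87%, and 7 higher, beside 10.6%, with none past the adjusted threshold, beside 0.399%. By sign 19 were negative, beside 50.1%, and 20 positive, beside 49.9%. Dark zone and mitotic markers, summed over 7 genes, were at 275 and 267 FPKM in the Csk(f/f)-labelled libraries against 317, 321 and 336 in Csk(+/+). Of the 7 genes 5 lay lower without overlap, beside 24.5% of all tested genes. Cxcr4 had 65.2 and 62.8 FPKM against 63.5, 61.5 and 58.6, and Foxo1 30.0 and 33.3 against 35.0, 37.8 and 21.5, which overlap. The median log2 fold change of the 7 was -0.39 as deposited and -0.08 after the GC correction. At an unadjusted p under 0.05 by limma, 4 of the 7 were lower as deposited, beside 13.6% of all genes. With the GC correction 3 were still lower, beside 5.07%. The coding-sequence GC correction gave a median of -0.20 with 2 lower, beside 6.81%. Erythroid genes, summed over 6, ranged from 269 to 685 FPKM against 238 to 1251 and followed no group. The part of these differences in the values of the nucleolar genes was not tested.

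Myc itself, a known activator of these genes, had 38.8 and 39.1 FPKM in the Csk(f/f)-labelled libraries, against 48.6, 38.3 and 34.0 in Csk(+/+), which overlap (log2 fold change -0.03 ± 0.17, limma adjusted p = 0.922). Of the 14 genes listed for its network, 11 were tested, with a median of 0.13 and 1 higher at an unadjusted p under 0.05, beside 8.07% of all genes. That gene was Zbtb17, which encodes the MYC partner Miz1 (22.9 ± 2.18 FPKM, SD, n = 2, against 17.0 ± 2.17, SD, n = 3). The repressor gene Mnt (17.4 against 11.9 FPKM) and Mlx (24.4 against 20.4) had higher means without passing. After the GC correction the median of the 11 was 0.09 and none had an unadjusted p under 0.05 by limma. Of the 32 MYC targets outside the nucleolus, 5 were higher and 8 were lower by limma at an unadjusted p below 0.05, with a median of 0.14, beside 8.07% higher and 13.6% lower of all genes. With the GC correction 2 were higher and 1 lower, beside 4.91% and 5.07%, with a median of 0.05. The folate carrier gene Slc19a1 had 23.9 and 26.1 FPKM in the Csk(f/f)-labelled samples, against 17.6, 14.2 and 13.0 in Csk(+/+) (log2 fold change 0.72 ± 0.17). Cad, of pyrimidine synthesis, had 71.3 ± 8.67 FPKM (SD, n = 2) against 47.1 ± 5.53 (SD, n = 3). Eif2s1, a translation initiation factor, had 29.6 ± 2.80 against 45.7 ± 6.68. As deposited the log2 fold change was 0.59 for Cad and -0.60 for Eif2s1. With the GC correction Slc19a1 was at 0.51 ± 0.15, Cad at 0.30 ± 0.12 and Eif2s1 at -0.17 ± 0.13.

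Other genes of ribosome assembly, listed by role, also had both signs. Of 45 further small subunit genes 6 were higher and 10 were lower by limma at an unadjusted p below 0.05 (median log2 fold change -0.24), and of 51 further large subunit genes 4 were higher and 12 lower (median -0.03). Over all genes 8.07% were higher and 13.6% lower. After the GC correction 0 were higher and 3 lower among the small subunit genes (median -0.01), and 2 and 2 among the large subunit genes (median -0.02), beside 4.91% higher and 5.07% lower of all genes. Nol7 had 29.7 ± 0.952 FPKM in the Csk(f/f)-labelled libraries (SD, n = 2) against 51.3 ± 8.62 in Csk(+/+) (SD, n = 3), Utp6 13.7 against 20.9 and Pwp2 31.7 against 23.0. Among large subunit genes Brix1 had 10.4 against 17.4 FPKM, the export adaptor Nmd3 13.7 against 22.8 and the GTPase Gtpbp4 19.3 against 32.5. As deposited the log2 fold changes of Nol7, Utp6 and Pwp2 were -0.76, -0.57 and 0.44, and GC corrected -0.37, -0.29 and 0.26. Those of Brix1, Nmd3 and Gtpbp4 were -0.68, -0.69 and -0.72, and GC corrected -0.27, -0.19 and -0.29. No gene of these lists passed the adjusted threshold by limma.

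Further RNA polymerase I genes, snoRNP assembly genes and RNA polymerase III subunits held few genes with a small p. Of 11 RNA polymerase I genes 1 was lower at an unadjusted p under 0.05, Taf1d of the promoter factor SL1 (14.9 against 27.9 FPKM), with a median of 0.02, beside 13.6% lower of all genes. None of the 11 had an unadjusted p under 0.05 by limma after the GC correction (median -0.02), and Taf1d was at -0.37 ± 0.21. Taf1c of the same factor had 12.8 against 9.09 FPKM, and the termination factor Ttf1 4.90 against 6.64. Of 12 snoRNP assembly genes none had an unadjusted p under 0.05 by limma (median -0.17), and after the GC correction 1 was higher and 1 lower (median -0.12). As deposited, those with the smallest p were Tgs1 (3.85 ± 1.05 FPKM, SD, n = 2, against 5.68 ± 0.270, SD, n = 3), Coil (6.63 against 8.37) and Naf1 (5.21 against 7.43). Of 11 RNA polymerase III subunits 2 were lower, Polr3f (2.14 against 3.57 FPKM) and Polr3k (9.53 against 13.3), with a median of -0.06, beside 13.6% lower of all genes. Polr3a had 11.4 against 9.03 FPKM. Once GC corrected, none of the 11 had an unadjusted p under 0.05 by limma (median -0.01), with Polr3f at -0.14 ± 0.15 and Polr3k at -0.01 ± 0.13.

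**Figure D4:**
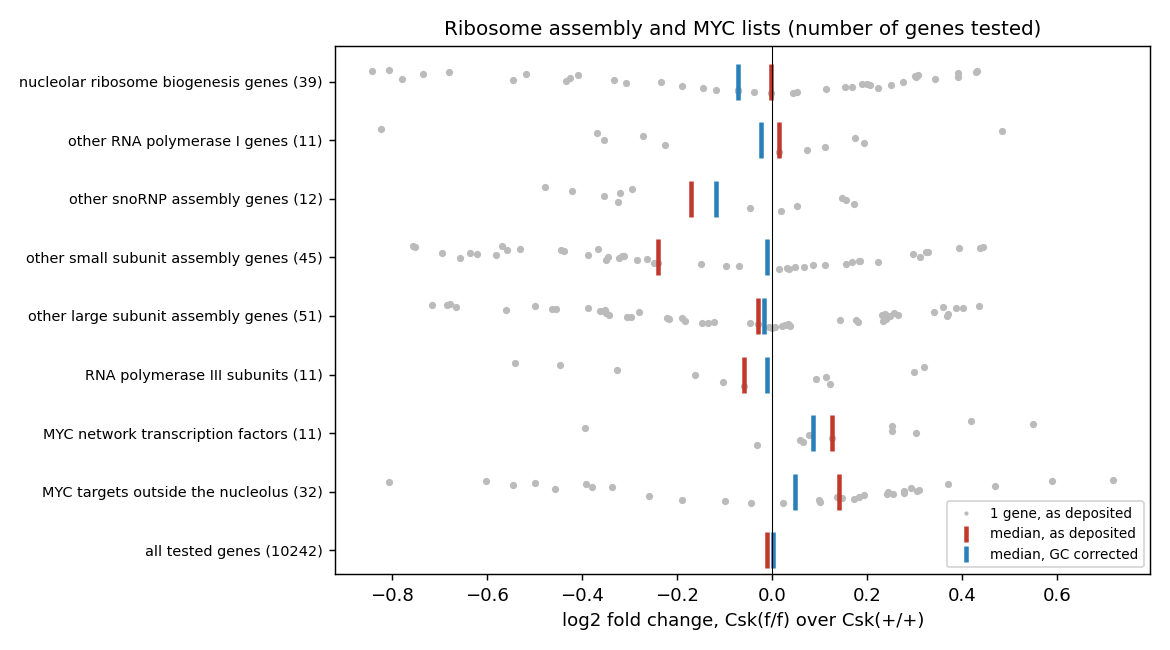
Log2 fold change, Csk(f/f) over Csk(+/+), of each gene (grey) and median (bars) for the 39 genes and 7 related lists, with the number of genes tested. Red bars are medians as deposited and blue bars after the GC correction, where the further small subunit genes have a median of -0.01, against -0.24 as deposited, and the last row gives the medians of all tested genes.

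The promoters were searched for the MYC E-box CACGTG, which reads the same on both strands, in the 300 bases from 250 before to 50 after each start (RefSeq, GRCm38.p6). Of the 39 members 34 had a sequence, and Rrs1, Npm1, Rrp12, Bop1 and Fbl had none. All of these but Rrs1 had an unadjusted p under 0.05 by limma. Of the 34, 5 held the motif, or 14.7%. The share was 8.09% among 27025 genes with a promoter sequence, a set not limited to the tested genes. The 5 were Imp4, Ltv1, Pes1, Tsr1 and Wdr43, and their log2 fold changes had both signs (0.20, -0.33, 0.28, -0.31 and -0.68). Stretches around the motif, in capitals, are shown for 4 of them, since this is the motif that MYC is known to bind. That of Ltv1, on the minus strand with the motif at position 29, is not printed.
Imp4, chr1:34439668-34439747, plus strand: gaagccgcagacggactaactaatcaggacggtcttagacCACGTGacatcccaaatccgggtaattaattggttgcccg
Pes1, chr11:3963935-3964004, plus strand: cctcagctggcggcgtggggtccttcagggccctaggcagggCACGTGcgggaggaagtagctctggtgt
Tsr1, chr11:74898040-74898109, plus strand: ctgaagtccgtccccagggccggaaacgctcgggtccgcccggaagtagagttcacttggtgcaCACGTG
Wdr43, chr17:71616175-71616244, plus strand: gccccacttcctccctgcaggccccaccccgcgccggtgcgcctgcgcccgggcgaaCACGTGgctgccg
The motif began at position -121 from the start in Imp4, 3 in Pes1, 25 in Tsr1 and 18 in Wdr43, counting the first transcribed base as 1. A match is a description of the letters, and windows outside these 300 bases were not searched.

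A further shared feature lies in the gene bodies. By the GENCODE M21 annotation, 8 of the 39 members hold snoRNA genes on their own strand, 23 in all, or 20.5% of members beside 2.03% of all tested protein-coding genes. The hosts were Ncl, Wdr43, Nop58, Ppan, Dkc1, Gnl3, Tsr1 and Nop56. As deposited 7 of the 8 hosts had a negative log2 fold change (median -0.61), against 13 of the 31 others (median 0.11). After the GC correction 7 of 8 were still negative (median -0.33), against 15 of 31 (median 0.05). With the coding-sequence GC correction 6 of 8 were negative (median -0.13), against 12 of 31 (median 0.07). The hosts' transcripts were at a median GC content of 45.3%, against 51.1% for the others. This split was chosen after the values were seen and was given no test. In addition 12 members overlap a protein-coding gene on the opposite strand, Rrp9, Bop1, Dkc1, Gnl3, Pes1, Tsr1, Nhp2, Wdr12, Rrp1b, Nop56, Polr1e and Heatr1. Whether counting used strand is not given in the sources used here, so their values may include reads of the partner.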

How the data were processed

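FPKM values were deposited by the authors, 1 column per library. Per the submitters' processing notes, TopHat2 (2.0.8) and Cufflinks (2.1.1) were used with mm9. The annotation, strand setting and any scaling between libraries are not given in the sources used here. Libraries were built from TRIzol RNA with the NEBNext Ultra RNA kit, per the labels' protocols.

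The test was limma (version 3.58.1, R version 4.3.3; trended prior, two-sided) on log2(FPKM + 1) for genes reaching 1 FPKM in 2 or more libraries, 2 libraries against 3, with Benjamini-Hochberg adjustment over all of them. The pseudocount understates changes of low genes. GC content came by gene name from GENCODE M21 (GRCm38), for 98.7% of tested genes. For the GC correction, each library's deviations from the gene means were fitted against GC content by lowess with span 0.3, and the fit was subtracted. The test was checked on simulated data.

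Members, lists and alternatives were chosen with earlier results of these data known. Values in every library are given for the 14 members with the smallest p, the 3 highest and 3 lowest in level and the smallest p of each role. Outside the members, Myc, Csk and up to 3 genes per list with the smallest p are named.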

Additional observations from a re-analysis of the deposited data

How the results depend on the processing

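The members were recomputed under 20 other settings, and 25 of the 39 kept the sign of their log2 fold change in all of them. No member passed an adjusted p of 0.05 by limma in 19 of the 21 settings, the reported one included. The exceptions were array weights (3 members, Npm1, Rrp9 and Bop1, beside 6.55% of all genes) and the replicate block (2 members, Npm1 and Ncl, beside 4.80% of all genes). Both settings reduce or remove the part of Csk(+/+) replicate 3. Its array weight was 0.259, and as the only library with its number it is taken up whole by the block. The members' median with the block, 0.050, was the same as without Csk(+/+) replicate 3, so these settings are not independent of each other. The count lower at an unadjusted p under 0.05, 6 as reported, was 2 with the coding-sequence GC correction and 1 to 9 when each library was left out, 1 without Csk(f/f) replicate 2, 3 without Csk(+/+) replicate 1 and 9 without Csk(+/+) replicate 2. The count higher, 6 as reported, was 2 with TPM rescaling, 1 with the GC correction, 3 with no trend, 3 with the coding-sequence GC correction and 0 to 8 when each library was left out, 0 without Csk(f/f) replicate 2, 1 without Csk(f/f) replicate 1 and 3 without Csk(+/+) replicate 1. The runs without a Csk(f/f) library compare 1 library with 3, so their counts cannot show instability of these genes in particular. In both runs the shares of all tested genes at that p were also below those reported, for lower and for higher genes. Shares of all tested genes at that p moved in other settings too. Lower genes were 13.6% as reported and 6.81% with the coding-sequence GC correction. They were 7.56% without Csk(+/+) replicate 1 and 11.3% without Csk(+/+) replicate 2. Higher genes were 8.07% as reported, 3.07% with TPM rescaling, 4.91% with the GC correction and 7.08% with no trend. They were 4.96% with the coding-sequence GC correction and 4.98% without Csk(+/+) replicate 1. The members' median, -0.0018 as reported, was -0.073 with the GC correction, 0.086 with array weights and -0.087 to 0.050 when each library was left out. The coding-sequence GC correction was chosen after seeing the data.

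Replicate numbers are only names here, since the labels give no shared origin and the deviations of same-numbered libraries correlated at -0.13 and 0.11. With the replicate block 12 members were lower and 8 higher at an unadjusted p under 0.05 by limma, beside 22.7% and 14.1% of all genes. Polr1d was then at 0.050 and Nip7 at 0.11. With the block and the GC correction Mrto4 was at -0.019, Rrp1b at -0.062, Polr1d at 0.013, Heatr1 at 0.11 and Nip7 at 0.40.

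Other log2 fold changes turned sign as follows. Median-ratio rescaling gave Nip7 0.026, and array weights gave Polr1d 0.022 and Nip7 0.087. The GC correction gave Imp3 -0.045, Mrto4 -0.096, Polr1c -0.073, Polr1e -0.0089, Heatr1 0.10 and Nip7 0.24. Without Csk(+/+) replicate 3 as well, it gave Mrto4 -0.019, Rrp1b -0.064, Polr1d 0.0099, Heatr1 0.11 and Nip7 0.40. The coding-sequence GC correction gave Wdr75 0.0081, Imp4 -0.0078, Imp3 -0.048, Ddx18 0.052, Polr1c -0.014, Nop56 0.053, Polr1d 0.19 and Heatr1 0.25. Leaving out each library gave ranges of -0.30 to 0.061 for Rrs1, -0.17 to 0.033 for Nop56, -0.15 to 0.050 for Polr1d, -0.028 to 0.14 for Polr1e, -0.20 to 0.12 for Heatr1, -0.087 to 0.19 for Nop10 and -0.10 to 0.11 for Nip7. The cause of these changes was not tested. With 2 libraries against 3, a standard error of 0.12 to 0.37 on the log2 scale limits what could be detected.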
